A study of Homo sapiens with 6 samples.

Results

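The 36 genes described here encode SNARE proteins, the membrane anchors that drive vesicle fusion, and the ATPase and adaptor that take SNARE complexes apart. They were chosen by symbol from the deposited table of 61860 genes, and all 36 were found there. Their expression was measured by RNA sequencing in A498 cells, an established human line derived from kidney cancer of the clear cell type. The libraries labelled PTPRZ_nc are the control of a PTPRZ1 knockdown and those labelled PTPRZ_Si are the knockdown, with 3 libraries in each group. PTPRZ1 encodes a receptor protein tyrosine phosphatase. By the labels, a plasmid was used in the controls and siRNA in the knockdown, and they give the treatment of both groups as transfection and infection, so the effect of the knockdown and that of the reagent cannot be told apart. Whether the replicates are separate cultures is not stated in the labels, and the p-values rest on a spread between libraries that may be technical.

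SNAREs work in bundles of coiled helices. In most complexes a syntaxin gives the Qa helix, other proteins give the Qb and Qc helices (SNAP23 and its relatives give both), and a vesicle protein such as a VAMP gives the R helix. Zippering of the helices pulls the membranes together, and the ATPase NSF with its adaptor alpha-SNAP (NAPA) then pulls the spent complex apart. Each compartment has its own set: the plasma membrane for secretion, endosomes and lysosomes for uptake and recycling, the Golgi and endoplasmic reticulum (ER) for the early secretory pathway. In kidney epithelium, STX3 and STX4 are known for delivery to the apical and the basolateral surface.

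Total counts in genes ran from 13726908 to 21469746 per library. PTPRZ1 had 0 counts in every library, which allows at most 0.14 to 0.219 CPM (counts scaled to library size) in a single library at 3 counts, for counting error only, so the knockdown could not be checked by its target. All 8 listed markers of a renal epithelial carcinoma line passed the filter on low counts. Of these 8, 7 were called, where 27.4% of all tested genes were. On the log2 scale PAX8 (0.83), PAX2 (0.37), CDH6 (1.06), KRT8 (0.13) and KRT18 (0.18) were higher in the knockdown. VIM (-0.58) and LHX1 (-1.05) were lower. The summed level of the 8 markers was 3098 to 3146 CPM in the control and 3153 to 3284 CPM in the knockdown. Of 8 neuronal and neuroendocrine markers, 6 stayed under 1 CPM in both groups, as did all 5 leukocyte and 3 of 4 endothelial markers. Summed fibroblast markers were at 31.4 to 41.7 CPM in the control and 21.6 to 23.6 CPM in the knockdown, almost all of it COL1A1, with the other 4 under 1 CPM. COL1A1 was called lower (-0.67, edgeR adjusted p = 5.63e-05). Summed leukocyte markers were at 0.587 to 0.877 CPM in the control and 0.960 to 1.324 CPM in the knockdown, and endothelial markers at 0.935 to 1.096 and 1.403 to 1.632 CPM, mostly CD14 and PECAM1, neither of them called. PTPRC, CD3E and CDH5 had 0 counts. The part of these shifts in the results below was not tested. In bulk RNA, fewer cells of a kind and less RNA per cell cannot be told apart.

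Of the 36 genes, 35 had enough counts to be tested and NSF did not. STX12 and VAMP7, which act in endosomes and lysosomes, were the lowest in the knockdown relative to control, VAMP7 with very uneven controls, STX2, BET1 and VAMP3 were slightly lower, and STX3, VTI1A, VAMP1 and SEC22B were higher. The other 26 did not pass the test. Calls were made by the quasi-likelihood test of edgeR with an adjusted p no higher than 0.05, over all 15476 tested genes, of which 27.4% were called, 14.0% higher and 13.4% lower. The 4 higher and 5 lower members make up 25.7% of the 35 tested. The median log2 fold change of the 35 was -0.05 against 0.00 over all tested genes, and the median size of the change was 0.131 against 0.176. Groups did not overlap for 17 of the 35 members, against 40.8% of all tested genes. Results of this comparison, the fall of STX12 among them, were known when the genes were chosen, so these counts and p-values describe the genes and are no independent evidence. Without knockdown replicate 1 the higher members numbered 2, and without knockdown replicate 2 the lower members numbered 3.

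**Figure D1:**
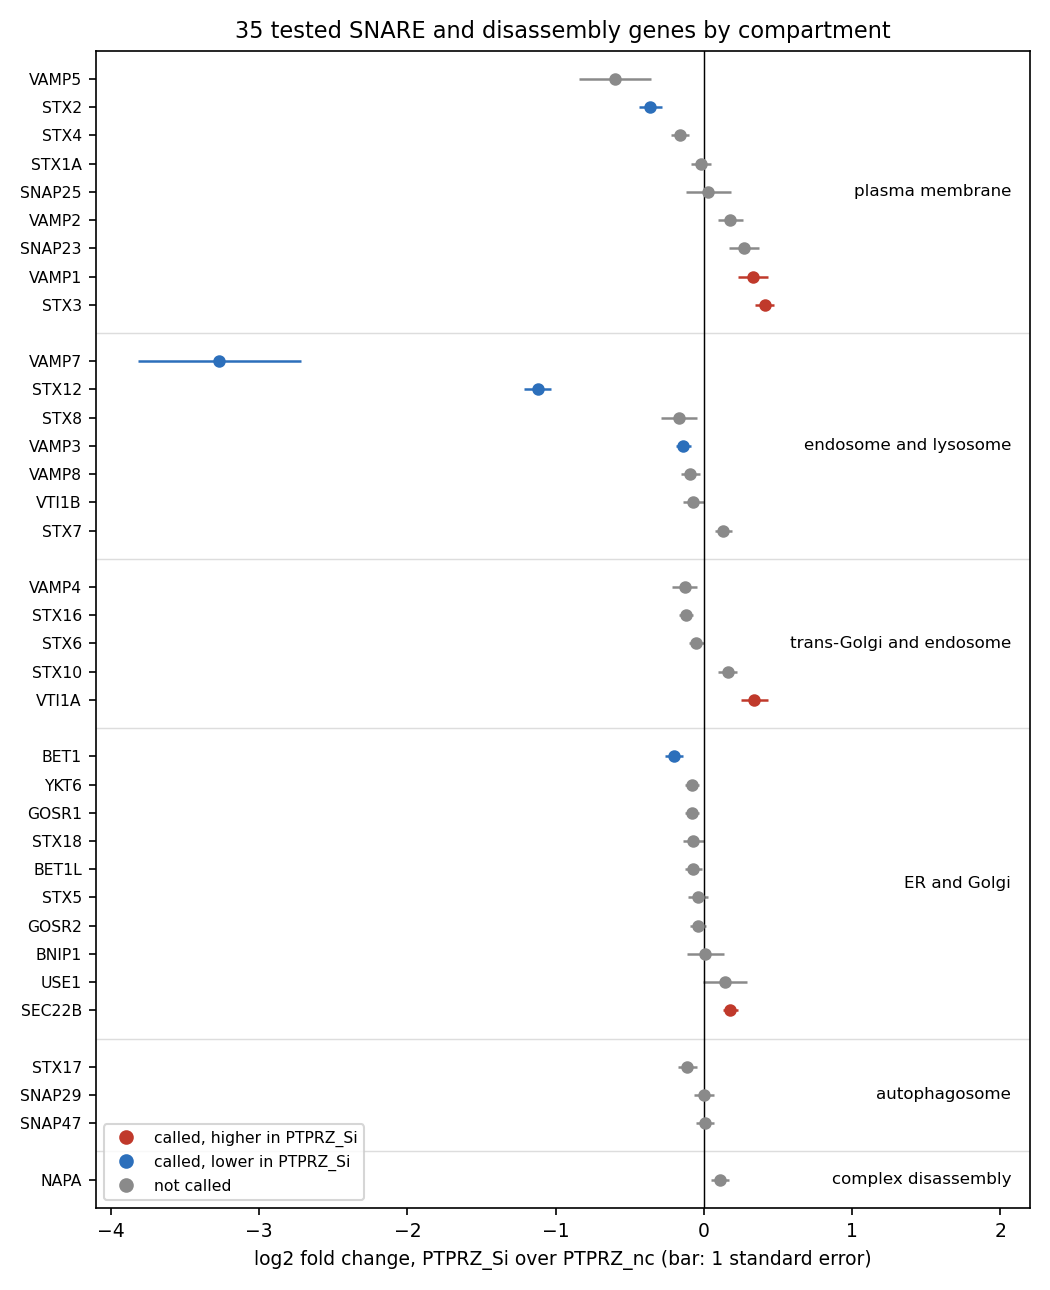
Log2 fold change between knockdown and control (x axis, bar of 1 standard error) for the 35 tested genes, grouped by the compartment where each mainly acts. VAMP7 (-3.27) and STX12 (-1.12) stand far to the left, and the ER and Golgi genes lie between -0.20 and 0.18.

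Levels can be compared between genes only per exon length, given here as CPM per kb of exon. In the control, the R-SNARE YKT6, a lipid-anchored protein of the Golgi, was at 55.9 ± 2.50 CPM per kb (SD, n = 3) and the endosomal R-SNARE VAMP8 at 54.8 ± 3.03, which differ by less than their spread. VAMP3 followed at 35.6 ± 0.742, STX10 at 27.0 ± 0.633 and STX16 at 22.4 ± 0.839 CPM per kb. The syntaxins of the plasma membrane lay lower, with STX4 at 12.1 ± 0.416, STX2 at 11.5 ± 0.813 and STX1A at 9.81 ± 0.428 CPM per kb. STX3 was at 6.12 ± 0.321 CPM per kb. SNAP25, known as the SNAP of neurons, was lowest of the tested genes at 1.83 ± 0.245 CPM per kb, and its non-neuronal relative SNAP23 was at 2.13 ± 0.101. Exons that overlap another gene lose read pairs in the counting, so levels of SNAP47 (35.3% of its exon length shared), NAPA (29.8%), STX16 (28.4%), SNAP23 (27.4%) and VTI1B (21.2%) are understated by an unknown amount. Lengths were taken over every annotated exon, which understates genes with rare long transcripts.

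STX12, also called syntaxin 13, is a Qa-SNARE of early and recycling endosomes and gave the largest fall among the members with even replicates. The gene (ENSG00000117758) lies on chromosome 1 from 27773183 to 27824452, plus strand, in GRCh38. In GENCODE 29 it shares no exon sequence with another annotated gene. Its counts were 450, 436 and 574 in the control libraries (replicates 1, 2 and 3, the order used throughout) against 204, 277 and 283 in the knockdown libraries. Scaled to library size these are 26.3, 31.9 and 30.6 CPM against 14.2, 13.3 and 13.2 CPM, and the highest knockdown library lies far below the lowest control. The fall was 2.18-fold, or -1.12 on the log2 scale, which is the scale of the changes below (SE 0.0917, edgeR adjusted p = 1.05e-07). Among all tested genes, 4.72% were called with a fold of at least 1.5 in either direction. STX7, the Qa-SNARE of late endosomes, went from 50.8 ± 1.36 to 55.6 ± 1.13 CPM (SD, n = 3 each) and was not called (0.13, SE 0.0577, edgeR adjusted p = 0.105).

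The balance between these syntaxins also differed between the groups. Per exon length, STX12 made up 69.4%, 72.7% and 71.5% of the sum of STX7 and STX12 in the control libraries. In the knockdown it made up 52.5%, 50.7% and 49.8%. These shares depend on the exon lengths used, 16387 bp for STX7 and 3846 bp for STX12. Without that scaling STX7 was the higher of the pair in the control, at 50.8 against 29.6 CPM. The shares follow from the values above and are a description of them.

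VAMP7, an R-SNARE of late endosomes and lysosomes that also serves lysosome exocytosis, had the largest fold change of the set and the least even replicates. The gene (ENSG00000124333) lies on chromosome X from 155881293 to 155943769, plus strand, in GRCh38. Its counts were 34, 207 and 384 in the control and 20, 26 and 27 in the knockdown. In CPM these are 1.99, 15.1 and 20.5 against 1.394, 1.248 and 1.263, so control replicate 1 sits near the knockdown libraries and the other 2 controls far above them. The fitted change was -3.27 (SE 0.548, edgeR adjusted p = 0.000253) and passed under each of the 13 alternatives run, with -2.68 in limma-voom (adjusted p = 0.0455), -2.69 without control replicate 3 and -3.78 without control replicate 1. The largest control was 10.3 times the smallest. Among 14270 tested genes whose mean reached 1 CPM in a group, 11, VAMP7 included, were at least as uneven within a group. Groups with a library at 0 counts have no such ratio and were left out. VAMP7 is annotated on both sex chromosomes in GENCODE 29, and read pairs with several placements were not counted. Of 17 other protein-coding genes annotated on both, 16 had under 5 counts over the 6 libraries and the remaining one had 20. The part of placement in the difference between groups was not tested.

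**Figure D2:**
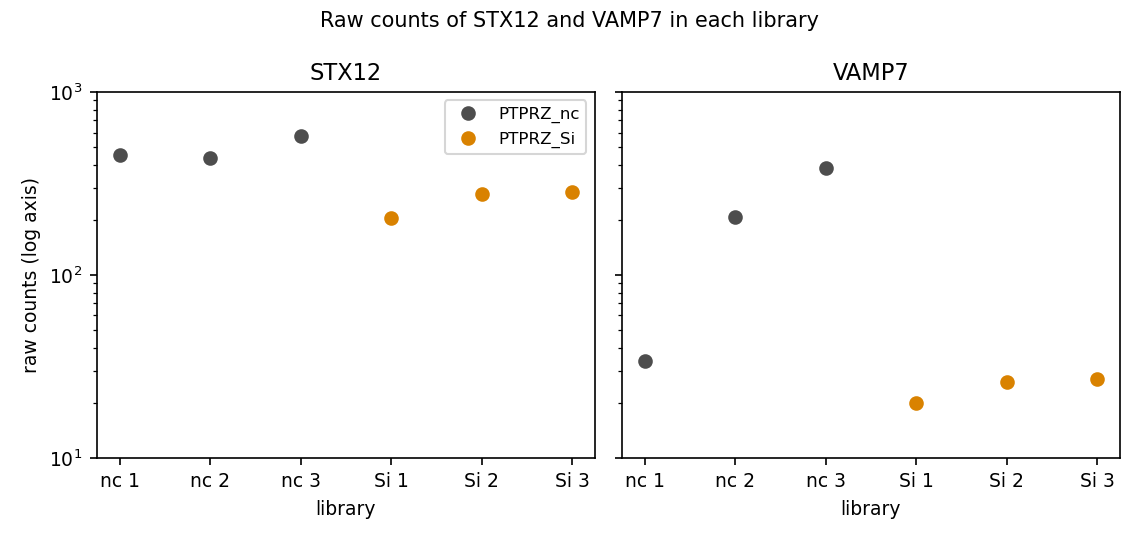
Raw counts in each library (log y axis) of STX12 and VAMP7. STX12 separates the groups with 436 to 574 against 204 to 283 counts, while VAMP7 has 34 counts in control replicate 1 and 207 and 384 in the other controls.

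The other SNAREs of endosomes and lysosomes moved little. VAMP3, cellubrevin, which carries recycling cargo back to the surface, had 98.7, 99.97 and 96.0 CPM in the control and 93.5, 86.5 and 87.8 CPM in the knockdown. The groups do not overlap, but the change was small (-0.14, SE 0.0503, edgeR adjusted p = 0.0485). The call for VAMP3 was lost in 8 of 13 alternatives, with adjusted p from 0.033 to 0.172. With the replicate number as a block its edgeR adjusted p was 0.0692. STX8 (-0.17, SE 0.121), VAMP8 (-0.09, SE 0.0639) and VTI1B (-0.07, SE 0.0704), which form the late endosomal complex with STX7, were not called. Of the 7 genes of this compartment, 0 were higher and 3 lower (42.9% called, against 27.4% of all tested genes, of which 13.4% were lower), with a median log2 fold change of -0.14. With 7 genes chosen with results known, these counts are a description.

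At the plasma membrane, STX3 and VAMP1 were higher and STX2 lower among 9 tested genes (33.3% called, against 27.4% of all tested genes). STX3, the apical Qa-SNARE of epithelia, had 42.6, 38.6 and 39.4 CPM in the control and 56.2, 51.3 and 53.0 CPM in the knockdown. Every knockdown library was above every control (0.41, SE 0.0653, edgeR adjusted p = 0.000165). STX2, also called epimorphin, had 39.7, 45.8 and 43.3 CPM in the control and 36.3, 33.3 and 30.7 CPM in the knockdown. Its groups also do not overlap, in the opposite direction (-0.36, SE 0.0768, edgeR adjusted p = 0.00177). STX3 and STX2 were called under each of the 13 alternatives.

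STX4, the basolateral Qa-SNARE, was at 49.4 ± 1.70 and 44.2 ± 2.17 CPM (SD, n = 3 each) and was not called (-0.16, edgeR adjusted p = 0.0774), though it passed without control replicate 2 (adjusted p = 0.0341). STX1A, known from synapses, was at 36.2 ± 1.58 and 35.9 ± 0.585 CPM (-0.02, edgeR adjusted p = 0.895). Among these 4 syntaxins, taken per exon length, STX3 went from 16.4%, 15.0% and 15.0% of their sum in the control libraries to 22.3%, 20.6% and 21.9% in the knockdown libraries. STX2 went from 26.9%, 31.4% and 29.1% to 25.4%, 23.6% and 22.4%, and STX1A from 24.8 ± 0.87% to 25.8 ± 0.237% (SD, n = 3 each).

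VAMP1, a synaptobrevin, had 15.5, 13.5 and 15.2 CPM in the control and 21.0, 18.0 and 16.9 CPM in the knockdown (0.33, SE 0.102, edgeR adjusted p = 0.0237). The groups do not overlap, but the call was lost without control replicate 2 (edgeR adjusted p = 0.0599) or knockdown replicate 1 (0.132). VAMP2, its close relative, had 28.7, 24.6 and 29.8 CPM in the control and 33.6, 31.4 and 29.9 CPM in the knockdown and was not called (0.18, SE 0.0825, edgeR adjusted p = 0.116). Set beside VAMP3, which lay lower in the knockdown, VAMP3's share of the 3 genes' sum per exon length went from 73.9 ± 2.09% to 68.5 ± 0.982% (SD, n = 3 each).

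SNAP23, which gives the Qb and Qc helices at the surface of most cells, was at 12.4, 12.1 and 13.2 CPM in the control and 13.9, 16.1 and 15.4 CPM in the knockdown. It stayed just short of the threshold (0.27, SE 0.101, edgeR adjusted p = 0.0534), and passed when only genes of at least 5 CPM were tested (adjusted p = 0.0417) or without knockdown replicate 1 (0.0493). SNAP25 was at 6.15 ± 0.821 and 6.31 ± 0.312 CPM (0.03). Of the 8 neuronal and neuroendocrine markers, SNAP91 had 0 counts and SYN1 3 over the 6 libraries, while RBFOX3 went from 2.26 to 4.13 CPM (means, 0.85, edgeR adjusted p = 0.0138) and SYT1 from 1.687 to 0.9797 CPM (-0.80, adjusted p = 0.0849). Their summed level was 5.01 to 5.70 CPM in the control and 5.30 to 6.64 CPM in the knockdown, and its part in the values of SNAP25 was not tested. VAMP5, known from muscle, had only 47, 35 and 61 counts in the control and 31, 42 and 33 in the knockdown (-0.60, SE 0.241, edgeR adjusted p = 0.0768), and its depth limits what could be detected.

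**Figure D3:**
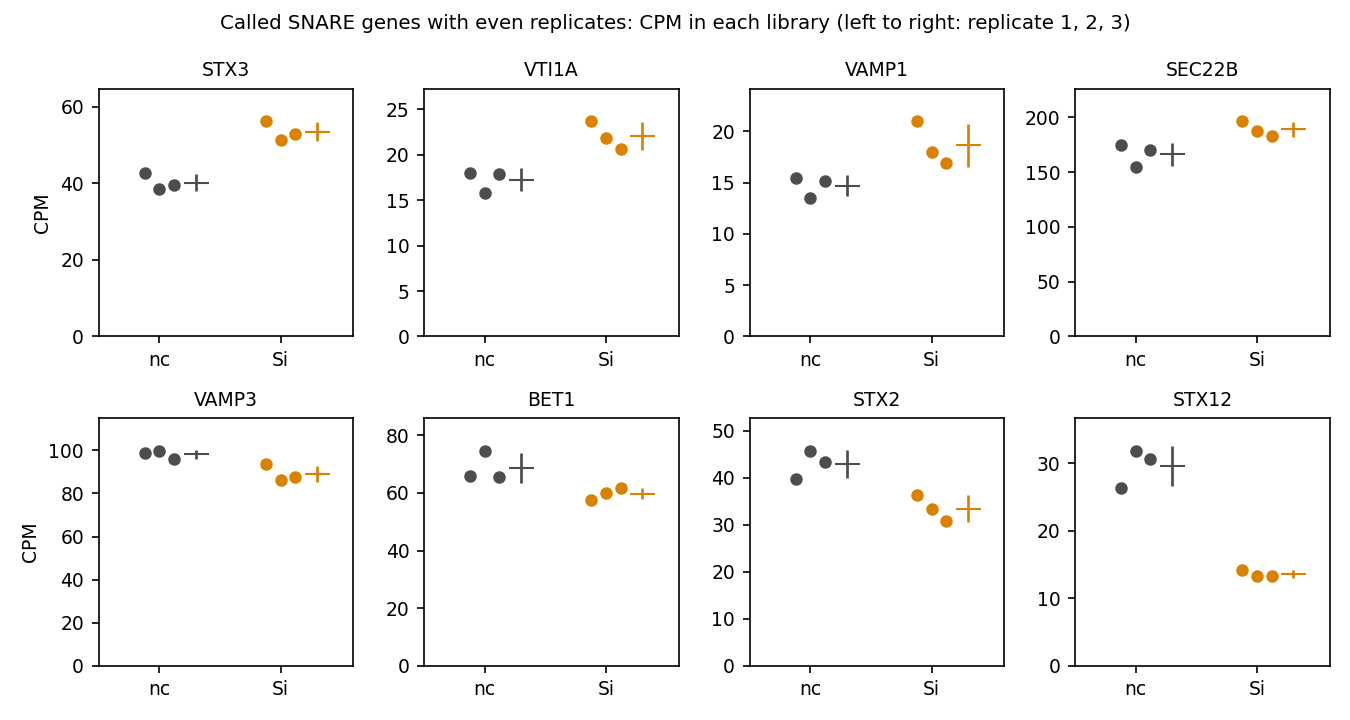
CPM in each library (y axis from 0) of the 8 called members with even replicates, with the group mean and SD beside the points. STX3, VTI1A, VAMP1 and SEC22B lie higher in the knockdown and VAMP3, BET1, STX2 and STX12 lower, and STX12 shows the widest gap, 26.3 to 31.9 against 13.2 to 14.2 CPM.

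Between the trans-Golgi network and endosomes, 1 of 5 genes was called (20%, against 27.4% of all tested genes). VTI1A, a Qb-SNARE that pairs with STX16 and STX6, had 18.1, 15.8 and 17.9 CPM in the control and 23.7, 21.8 and 20.6 CPM in the knockdown, with every knockdown library above every control (0.34, SE 0.0905, edgeR adjusted p = 0.00876). Without knockdown replicate 1 it had an edgeR adjusted p of 0.0523. Its relative VTI1B was not called, and VTI1A's share of their sum per exon length went from 21.6 ± 0.339% to 27.1 ± 2.71% (SD, n = 3 each). The partners STX16 (-0.12, edgeR adjusted p = 0.0746), STX6 (-0.05) and the R-SNARE VAMP4 (-0.13) were not called. STX16 passed without control replicate 3 (-0.15, edgeR adjusted p = 0.0474) and VAMP4 without control replicate 2 (-0.22, adjusted p = 0.0377). STX10, a Qc-SNARE related to STX6, was at 48.4 ± 1.14 and 54.0 ± 2.92 CPM (0.16, edgeR adjusted p = 0.0744), and passed without knockdown replicate 2 (0.20, adjusted p = 0.0495).

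**Figure D4:**
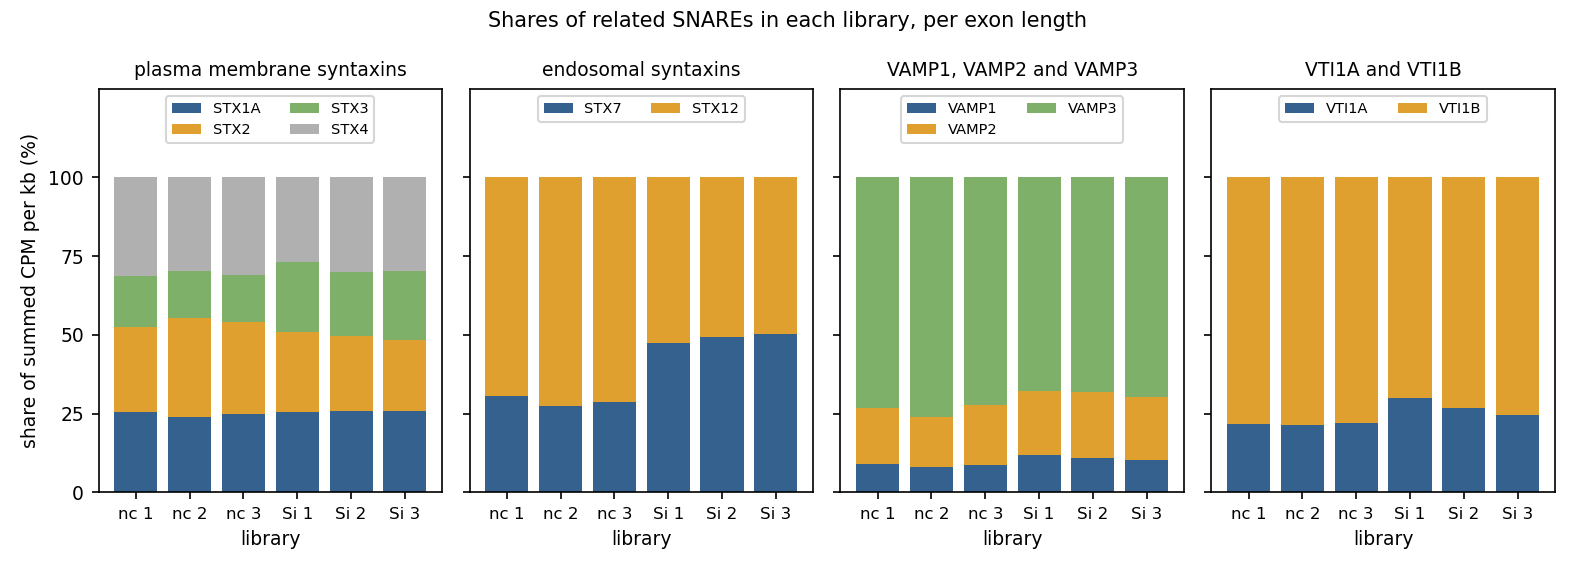
Share of each gene in the summed CPM per kb of its related group (y axis, percent) in the 6 libraries, for plasma membrane syntaxins, STX7 and STX12, VAMP1 to VAMP3, and VTI1A and VTI1B. STX12 takes 69.4% to 72.7% of its pair in the control and 49.8% to 52.5% in the knockdown. Shares depend on the exon lengths used, 16387 bp for STX7 and 3846 bp for STX12.

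In the early secretory pathway, 1 of 10 genes was higher and 1 lower (20% called, against 27.4% of all tested genes). SEC22B, the R-SNARE of transport between ER and Golgi, had 174.6, 154.6 and 169.8 CPM in the control and 196.4, 187.8 and 182.5 CPM in the knockdown (0.18, SE 0.0506, edgeR adjusted p = 0.0127). BET1, the Qc-SNARE of the same complex, went the other way, with 66.1, 74.8 and 65.5 CPM in the control and 57.7, 60.1 and 61.6 CPM in the knockdown (-0.20, SE 0.0618, edgeR adjusted p = 0.0253). Both differences are small, and neither pair of groups overlaps. SEC22B was not called without knockdown replicate 1 (edgeR adjusted p = 0.093), and BET1 was not called when control replicate 2 (0.0736) or knockdown replicate 1 (0.103) or 2 (0.0629) was left out.

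The Qa- and Qb-SNAREs that complete that complex, STX5 (-0.04, SE 0.0661) and GOSR2 (-0.04, SE 0.0528), were not called. The SNAREs of transport within the Golgi, GOSR1 (-0.08), BET1L (-0.07) and YKT6 (-0.08, SE 0.0462), were not called either. YKT6 was at 207.2 ± 9.28 and 196.4 ± 6.78 CPM (SD, n = 3 each). The SNAREs of return to the ER, STX18 (-0.07), BNIP1 (0.01) and USE1 (0.14, SE 0.148), also stayed short of the threshold. BNIP1 and USE1 had the fewest counts of this compartment, with 123 to 193 and 114 to 235 per library.

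The 3 autophagosome genes were not called, where 27.4% of all tested genes were. STX17, the Qa-SNARE that brings autophagosomes to lysosomes, was at 61.8 ± 4.58 and 57.3 ± 1.97 CPM (SD, n = 3 each, -0.11, edgeR adjusted p = 0.198), and passed without control replicate 2 (-0.17, adjusted p = 0.0249). Its partner SNAP29 was at 48.1 ± 2.71 and 48.3 ± 2.58 CPM (0.00, SE 0.0663), and SNAP47 at 66.0 ± 4.94 and 66.4 ± 1.87 CPM (0.01, SE 0.0608).

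For disassembly, NAPA was at 74.9, 86.3 and 74.9 CPM in the control and 82.7, 85.0 and 86.4 CPM in the knockdown. Control replicate 2 lies within the knockdown range and the other controls below it. NAPA was not called (0.11, SE 0.0591, edgeR adjusted p = 0.187), and passed without control replicate 2 (0.18, adjusted p = 0.0103). NSF had 3, 1 and 9 counts in the control and 6, 3 and 2 in the knockdown, far below what any other member had, and was not tested. NSFP1, annotated as its pseudogene copy, had 3 counts over the 6 libraries, and read pairs placed in both would not be counted. The few counts of NSF alone do not show whether the gene is silent, and their cause was not tested.

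A further 101 genes of membrane fusion, grouped by role, give the setting of these changes. Of the 95 tested, 12 were higher and 21 lower in the knockdown (34.7%, against 27.4% of all tested genes), with a median log2 fold change of -0.07. Leaving out knockdown replicate 1, 2 or 3 left 7 higher each time, and leaving out knockdown replicate 2 or 3 left 11 or 13 lower.

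SNAREs outside the set of 36 fell where called (60% of 5 tested, against 27.4% of all tested genes). STX11, known from killing by lymphocytes, had 3.97, 4.39 and 4.85 CPM in the control and 2.72, 1.73 and 2.43 CPM in the knockdown (-0.96, SE 0.218, edgeR adjusted p = 0.00316). SEC22A (-0.41, SE 0.112) and SEC22C (-0.28, SE 0.0703), relatives of SEC22B, were lower, whereas SEC22B was higher. TSNARE1 (-0.18) was not called, and STX19 was too low to test. The adaptors NAPB (-0.21) and NAPG (0.00) were not called.

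Sec1/Munc18 proteins clasp syntaxins and guide their assembly. Among them 1 of 8, SCFD2 (-0.28, SE 0.0796), was called (12.5%, against 27.4% of all tested genes). Tethers hold a vesicle at its target before SNAREs engage. ZW10, of the NRZ tether that works with STX18, BNIP1 and USE1 at the ER, had 18.7, 20.3 and 22.3 CPM in the control and 11.8, 12.1 and 12.3 CPM in the knockdown (-0.76, SE 0.0967, edgeR adjusted p = 1.59e-05), while those 3 SNAREs were not called. COG4 of the Golgi tether COG fell (-0.38, SE 0.0516) and COG2 rose (0.20, SE 0.0681). VPS54 of the GARP tether, which serves STX16, STX6 and VTI1A, rose from 34.7 to 46.5 CPM (0.43, SE 0.0661, edgeR adjusted p = 0.000113). In the endosomal tethers, TGFBRAP1, a CORVET subunit, rose (0.33, SE 0.0517), and VPS16 (-0.33, SE 0.113) and VPS41 (-0.14, SE 0.0466) fell. The groups of VPS16 overlap, with control replicate 3 at 20.3 CPM and knockdown replicate 1 at 21.8 CPM. Its call was lost in 4 of 13 alternatives, with edgeR adjusted p up to 0.198. In the exocyst, which tethers vesicles at the plasma membrane, EXOC5 (-0.22) and EXOC3 (-0.16) fell. The other 7 of 9 subunits were not called, so 22.2% were called against 27.4% of all tested genes.

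The endosomal lists held calls in both directions. BLOC1S6, or pallidin, a subunit of the endosomal complex BLOC-1 known to bind STX12, fell (-0.32, SE 0.0662, edgeR adjusted p = 0.00175). BLOC1S2 (-0.23) also fell, while the subunit SNAPIN rose (0.24). The other 5 of 8 were not called, so 37.5% were called against 27.4% of all tested genes. Of 22 tested Rab GTPases and effectors of endosomes 3 rose, 4 fell and 15 were not called (31.8% called, against 27.4% of all tested genes). EHD1, which drives exit from the recycling endosome, fell from 155.1 ± 4.05 to 114.1 ± 2.46 CPM (SD, n = 3 each), and EHD3 (-0.32) and RAB5A (-0.24) also fell. RAB7A of late endosomes (0.23), RAB5C (0.35) and RAB35 (0.18) rose, with RAB5C at 77.3, 46.9 and 71.0 CPM in the control and not called by DESeq2 (adjusted p = 0.233).

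Of 19 tested regulators of exocytosis 5 rose, 5 fell and 9 were not called, so 52.6% were called against 27.4% of all tested genes. RAB27A, which docks lysosome-related organelles and exosome-bearing compartments, had 42.2, 41.1 and 46.8 CPM in the control and 26.8, 31.6 and 32.8 CPM in the knockdown (-0.51, SE 0.0807, edgeR adjusted p = 0.000156). The priming factor UNC13D (-0.56, SE 0.156) and the syntaxin-binding TXLNA (-0.19, SE 0.0505) also fell. STXBP6, or amisyn, which carries an R-SNARE-like helix and binds syntaxins, rose from 9.40, 9.28 and 12.1 CPM to 19.4, 15.0 and 15.9 CPM (0.69, SE 0.126, edgeR adjusted p = 0.000543). STXBP4 (0.41, SE 0.101) and SYTL2, an effector of RAB27A (0.24, SE 0.0565), rose as well. Of the 28 called genes of these lists named here, 15 were called in every alternative that tested them, among them STX11, ZW10, VPS54, COG4, BLOC1S6, EHD1, RAB27A and STXBP6. The other 13 lost the call in at least 1, most often COG2 (8 of 13), VPS41 (7) and RAB35 (5), with adjusted p up to 0.167, 0.108 and 0.142.

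**Figure D5:**
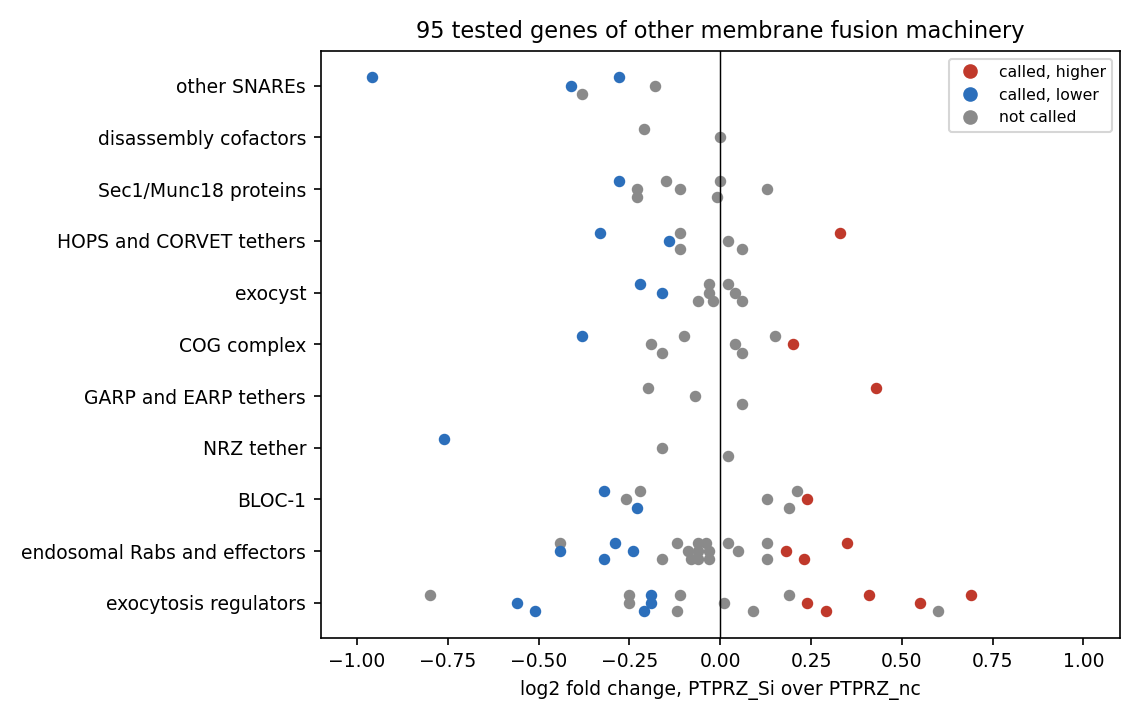
Log2 fold change between knockdown and control (x axis) of the 95 tested genes of other membrane fusion machinery, 1 point per gene and 1 line per role. STX11 (-0.96) and ZW10 (-0.76) are the lowest called points and STXBP6 (0.69) the highest.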

How the data were processed

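The deposited values are unnormalized counts of read pairs for each gene. Per the file headers, featureCounts 2.0.1 made them in its paired mode from exons of the Ensembl GRCh38 annotation, release 107, from alignments whose names contain hisat. No option for strand, several placements or several genes was set, so pairs placed in several genes were left out by the program's default. The build is hg38 per the submitters' processing notes. Per the labels' protocols, the library kit was directional.

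Symbols came from a gene name table, and positions, exon lengths and overlaps from GENCODE 29 (GRCh38). The members and lists were chosen with earlier results of these data known. Tests used edgeR 4.0.16 in R 4.3.3: filterByExpr left 15476 genes with 99.82% of the counts, TMM scaling (factors 0.9936 to 1.009), glmQLFit and glmQLFTest, 2-sided, Benjamini-Hochberg over all tested genes, called at 0.05. CPM values use TMM. SE is the log2 fold change over the root of the F statistic. No library repeated another of its group within sampling noise (chi-square over degrees of freedom, 2.16 to 6.11). The highest values, 5.11 and 6.11, were those of the pairs with control replicate 2. Alternatives were other scaling, filters, DESeq2 1.42.0, limma-voom (limma 3.58.1), a replicate block and leaving out each library. Named genes were all members, and of each other list at most 3 called genes of smallest p in each direction; other listed genes are given as counts, except a few uncalled ones named after their values were seen. Members with the largest library at least 1.5 times the smallest and a mean of at least 1 CPM were named as uneven, which only VAMP7 met. No sequences are printed.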

Additional observations from a re-analysis of the deposited data

How the results depend on the processing

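Depth limits NSF and VAMP5 most. Of the 9 called members, STX12, STX3, STX2 and VAMP7 were called under each of the 13 alternatives, and over the alternatives run for the 35 tested members (VAMP5 was not tested at 5 CPM) 412 values kept their direction and side of the threshold, 15 lost the call, 9 gained one and 18 changed sign. Leaving out each library in turn gave 3182 to 4425 called genes, 2 to 5 higher and 3 to 6 lower members, and 7 to 11 higher and 11 to 23 lower genes of the other lists. The 4425 came from leaving out control replicate 2, the library of fewest counts. In that fit 10 members were called, 6 of them among the 9. VAMP1, VAMP3 and BET1 lost the call there, and STX4, STX17, VAMP4 and NAPA gained one. The members called with DESeq2, or with a replicate block, numbered 8, all among the 9, and testing only genes of at least 5 CPM gave 11, with STX10 (adjusted p = 0.0467) and SNAP23 added. Deviations of same-numbered libraries correlated at 0.0226 to 0.0333, each the highest for its library, and those of differently numbered ones at -0.0234 to -0.00517. The labels do not say that replicate numbers pair libraries, and these weak correlations do not settle it. The replicate block gave 4101 called genes, 4 higher and 4 lower members and 12 higher and 19 lower of the other lists. Changes of sign occurred only in members near 0 that were not called: without 1 library, STX1A ranged from -0.05 to 0.01, SNAP25 from -0.07 to 0.12, SNAP29 from -0.04 to 0.05, SNAP47 from -0.03 to 0.07 and BNIP1 from -0.05 to 0.08. With library totals only SNAP29 and BNIP1 were each at -0.01, with any gene of 1 count or more they were at -0.01 and 0.00, and with limma-voom both were at 0.00. The cause of these changes was not tested.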
